A study of Mus musculus with 16 samples.

Results

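The genes described here are a set of 38 interferon response genes, listed by symbol as well-known members of the transcriptional programme that interferons switch on. The rule of the list did not use the measured values, although genes and lists were chosen with earlier results of these data known. Of the 38, 37 were found among the 18132 genes of the expression table. The remaining symbol, ISG15, was not analysed here. The 37 genes fall by role into 8 transcription factors, 9 sensors of foreign nucleic acid and enzymes acting on double-stranded RNA, 13 antiviral effectors, 2 members of the ISG15 system and 5 other induced genes.

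Type I interferons are secreted proteins that signal through a receptor complex and the kinases JAK1 and TYK2 to a factor that contains STAT2 and IRF9, which binds the interferon-stimulated response element in the promoters of its target genes. Interferon gamma acts through its own receptor and the gamma-activated site in its target promoters, and IRF1 carries part of that response further. In the kidney these genes are best known from viral infection, lupus nephritis and acute tubular injury, where tubule cells, endothelium and leukocytes can all express them.

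RNA of whole kidneys was measured on 16 Illumina mouse bead arrays, 1 for each labelled sample. In unilateral ureteral obstruction (UUO), a clip on the ureter blocks the outflow of 1 kidney, and the tissue was taken 24 h later. The 4 groups were WT control (n = 2), WT UUO (n = 7), IL-33-deficient control (n = 2) and IL-33-deficient UUO (n = 5). All mice were C57/BL6 by the labels, a background the methods give as C57BL/6J BomTac, were 8 weeks old where no other age was stated, and the IL-33 KO line carried a deletion of the gene in the whole animal. The labels call the remaining kidneys control and do not say whether those mice had a sham operation. The UUO arrays came in 2 sets of mice, 3 WT and 2 KO arrays in set 1 and 4 WT and 3 KO arrays in set 2. The set of the controls was not stated, so a control that differed from the UUO mice by set cannot be told apart from one that differed by treatment. Arrays are named by the number in their label. Nothing in the labels says from how many animals each RNA came, so p-values measure the spread between these samples.

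IL33 itself, the deleted gene, followed the labels. Its log2 intensity was 6.80 to 7.02 on the 7 KO arrays with and without UUO, against 7.62 and 8.02 in WT controls and 8.39 to 9.57 after UUO in WT. The kidney injury genes HAVCR1 and LCN2 also followed the labels, with a summed intensity of 322 to 352 on the 4 control arrays and 4973 to 28333 on the 12 UUO arrays. WT UUO array 3820 stood apart from its group, since its injury sum was the 4973, its sum over 10 kidney epithelial markers was 47187 against 21964 to 37523 on the other 6, and its HAVCR1 log2 intensity was 10.42. Values are log2 of quantile-normalized intensity, on which the lowest value of the table was 6.59 and the median over genes 7.05. Differences of dim genes are compressed on this scale by the background that each intensity contains, and levels of different genes are not compared.

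Of the 37 genes, 9 rose after UUO in WT kidneys and 2 fell, at an adjusted p under 0.05 by limma over all 18132 genes. The share that rose was 24.3%, beside 6.97% of all genes tested, and the share that fell was 5.41%, beside 8.22%. In KO kidneys 11 rose and 2 fell, 29.7% and 5.41% of the genes, beside 10.6% and 11.2% of all genes tested. The median log2 difference over the 37 genes was 0.09 in WT and 0.12 in KO, where it was -0.00 over all genes in both. All 9 genes that rose in WT were among the 11 that rose in KO, and IRF5 and RSAD2 fell in both genotypes. The remaining 24 genes passed the test in neither genotype. The UUO arrays all lay above the 2 controls in 13 of the 37 genes in WT and 19 in KO, beside 10.2% and 17.5% of all genes. They all lay below in 2 genes in each genotype, beside 11.2% and 17.5% of all genes. With 2 controls in a group, a lack of overlap is thus common over the whole table. The WT and KO comparisons use different UUO and control arrays and share the estimate of the spread.

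**Figure D1:**
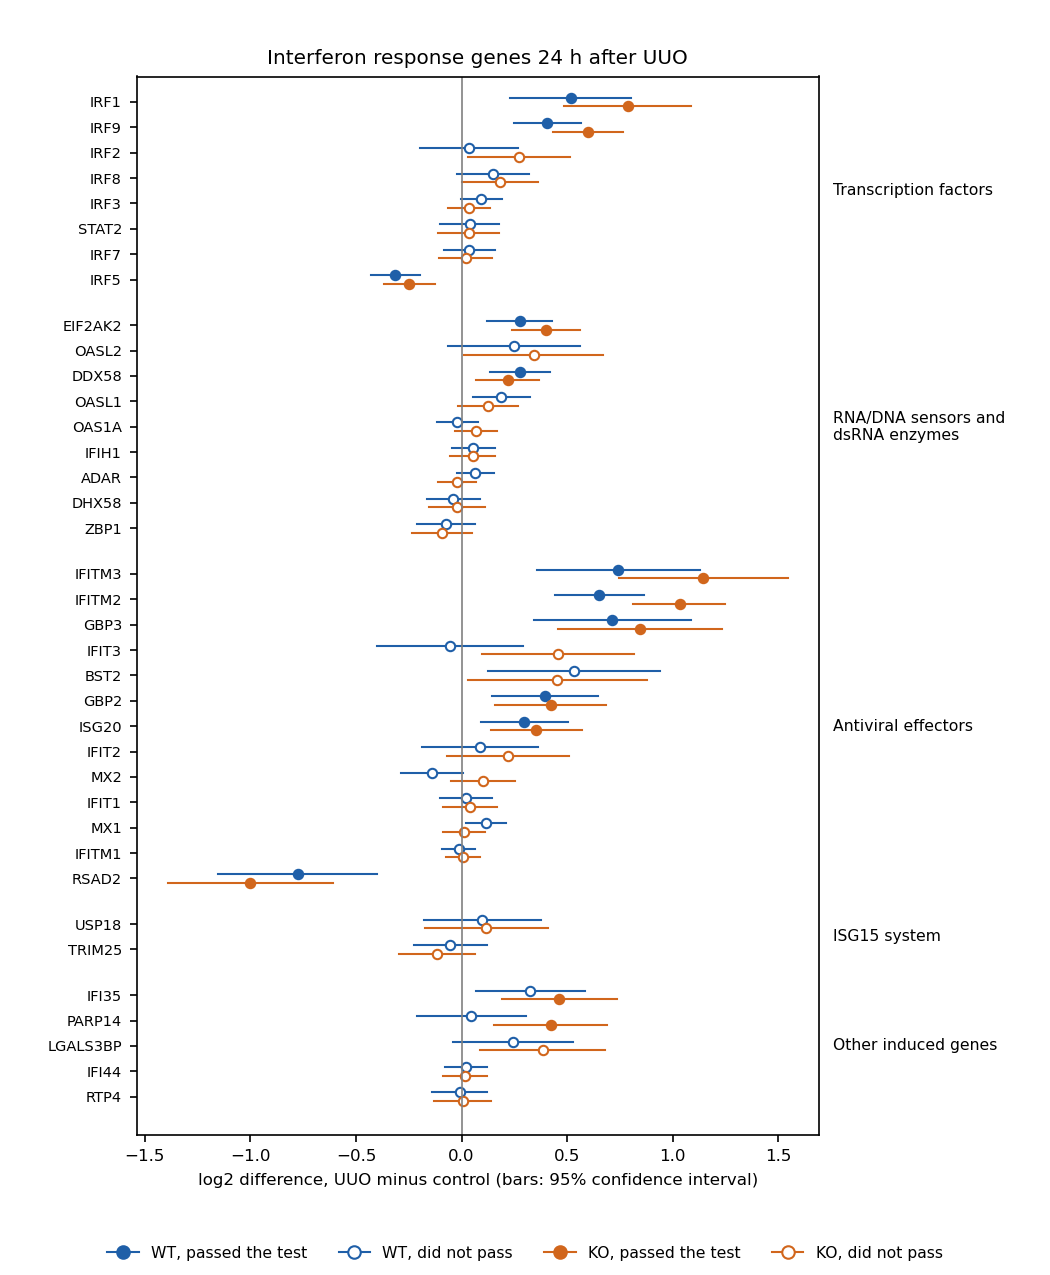
Log2 difference of UUO minus control for each of the 37 genes, by role, in WT (blue) and KO (orange), with bars for the 95% confidence interval and filled points for an adjusted p under 0.05. The largest rises were those of IFITM3, IFITM2 and GBP3 and the largest fall that of RSAD2, in both genotypes.

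Every gene that passed lay in the brighter part of the table. Of the 37 genes, 26 had a mean log2 intensity above the median of all genes, and 9 of these rose in WT and 11 in KO. Among all genes above that median, 13.6% rose in WT and 20.4% in KO. The 11 dimmer genes were IRF7, IFIH1, DHX58, OAS1A, OASL1, IFIT1, IFITM1, MX1, MX2, IFI44 and RTP4. In the fit of all 16 arrays none of these 11 rose or fell, beside 0.309% of all dimmer genes that rose in WT and 0.717% in KO. For them the arrays thus give little room to see a change.

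Among the transcription factors, IRF1 and IRF9 rose, IRF5 fell and IRF2, IRF3, IRF7, IRF8 and STAT2 did not pass the test in either genotype. IRF1 is a factor induced early by interferon gamma and by inflammatory cytokines. Its log2 intensity was 8.24 and 8.26 in WT controls and ran from 8.37 through a median of 8.77 to 9.11 in WT UUO. In KO it was 8.23 and 8.12 in controls and 8.92, 9.04, 8.99, 8.85 and 9.02 after UUO. The control and UUO arrays did not overlap in either genotype, and the lowest UUO array was WT 3818. The log2 difference was 0.52 ± 0.14 (SE) in WT, 1.43-fold with adjusted p = 0.0177, and 0.79 ± 0.14 in KO, 1.73-fold with adjusted p = 9.1e-04.

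IRF9 is the DNA-binding subunit of the factor through which type I interferon acts. IRF9 measured 7.63 and 7.79 in WT controls and 7.98 to 8.26 in WT UUO, with a median of 8.10. KO controls gave 7.75 and 7.68 for IRF9, and the KO UUO arrays 8.41, 8.36, 8.27, 8.22 and 8.30. Every UUO array of IRF9 was thus above every control array. IRF9 differed on the log2 scale by 0.41 ± 0.07 (SE) in WT, with adjusted p = 0.00214, and 0.60 ± 0.08 in KO, with adjusted p = 9.4e-05.

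IRF5, a factor of myeloid cells and B cells that acts downstream of Toll-like receptors, moved the other way. Its log2 intensity was 7.76 and 7.80 in WT controls and 7.38 to 7.53 in WT UUO, with a median of 7.48. In KO it was 7.88 and 7.79 in controls, then 7.61, 7.72, 7.47, 7.58 and 7.57 after UUO. No UUO array reached the controls of its genotype. IRF5 fell by 0.31 on the log2 scale in WT (adjusted p = 0.00153) and by 0.25 in KO (adjusted p = 0.00494).

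The other 5 factors did not pass. STAT2, the partner of IRF9, differed by 0.04 in WT and 0.03 in KO on the log2 scale, with 95% intervals of -0.10 to 0.18 and -0.11 to 0.18. IRF3, which is activated by phosphorylation downstream of the sensors, differed by 0.09 (95% interval -0.00 to 0.19) in WT and 0.03 (-0.07 to 0.14) in KO. IRF7, the factor that amplifies interferon alpha transcription, was at the dim end of the table at 6.87 to 7.17 on all 16 arrays. IRF8, a factor of myeloid cells, differed by 0.15 in WT (adjusted p = 0.279) and 0.18 in KO (adjusted p = 0.155), and IRF2, an antagonist of IRF1 at many sites, by 0.04 (adjusted p = 0.895) and 0.27 (adjusted p = 0.111). For both IRF8 and IRF2 the KO UUO arrays lay above the KO controls without overlap, while the WT groups overlapped. With the UUO arrays of set 2 alone IRF8 was called in KO (0.21, adjusted p = 0.0375), but not with those of set 1 alone (0.13, adjusted p = 0.563).

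Among the sensors and enzymes acting on double-stranded RNA, DDX58 and EIF2AK2 rose in both genotypes and the other 7 passed in neither. DDX58 encodes RIG-I, a cytosolic sensor of viral RNA. Its log2 intensity was 7.12 and 7.14 in WT controls and 7.22 to 7.49 in WT UUO, with a median of 7.41. In KO the controls were 7.18 and 7.30 and the UUO arrays 7.33, 7.44, 7.49, 7.46 and 7.57. The nearest control and UUO arrays lay close together in KO, at 7.30 and 7.33, but the groups did not overlap. The log2 difference of DDX58 was 0.28 ± 0.07 (SE) in WT (adjusted p = 0.0117) and 0.22 ± 0.07 in KO (adjusted p = 0.0357). The KO call was lost without KO UUO array 3822 (adjusted p = 0.0520), 3897 (0.0643), 3898 (0.0559) or 3899 (0.0685), and without either KO control.

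EIF2AK2 encodes PKR, a kinase that halts translation when it binds double-stranded RNA. EIF2AK2 read 8.33 and 8.29 in WT controls and 8.43 to 8.79 in WT UUO, with a median of 8.61. KO controls read 8.36 and 8.40, and KO UUO arrays 8.88, 8.80, 8.72, 8.76 and 8.72. All UUO arrays were above all controls, and KO UUO arrays 3821 and 3822 lay above the whole WT UUO range. The log2 difference was 0.27 ± 0.07 (SE) in WT (adjusted p = 0.0180) and 0.40 ± 0.08 in KO (adjusted p = 0.00136).

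The genes of the 2′,5′-oligoadenylate synthetase family did not pass. OASL1 differed by 0.19 in WT (adjusted p = 0.0615) and 0.12 in KO (adjusted p = 0.237), and OASL2 by 0.25 (adjusted p = 0.333) and 0.34 (adjusted p = 0.144). In WT, OASL1 was called with the UUO arrays of set 2 alone (0.20, adjusted p = 0.0481) but not with those of set 1 alone (0.17, adjusted p = 0.295). It was also called with the lowest intensity of the table subtracted and 16 added before log2 (0.50, adjusted p = 0.0352). The size of that difference depends on the 16. OAS1A stayed between 6.77 and 6.92 on all 16 arrays. IFIH1, which encodes the RNA sensor MDA5, lay between 6.72 and 6.97 on all arrays, and DHX58, which encodes their regulator LGP2, between 6.93 and 7.19. ZBP1, a sensor of Z-form nucleic acid, differed by -0.07 in WT (adjusted p = 0.559) and -0.09 in KO (adjusted p = 0.418). ADAR, the enzyme that edits adenosines in double-stranded RNA, differed by 0.06 in WT (adjusted p = 0.373) and -0.02 in KO (adjusted p = 0.811).

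The antiviral effectors held the largest changes in both directions. Of these 13 genes, IFITM2, IFITM3, GBP2, GBP3 and ISG20 rose in both genotypes, RSAD2 fell in both, and IFIT1, IFIT2, IFIT3, IFITM1, MX1, MX2 and BST2 passed in neither. IFITM3 and IFITM2 are small membrane proteins that hinder the fusion of virus with the cell. IFITM3 log2 intensity was 11.12 and 11.22 in WT controls and ran from 11.26 through a median of 12.04 to 12.28 in WT UUO. In KO it was 11.19 and 11.06 in controls and 12.41, 12.28, 12.38, 12.16 and 12.11 after UUO. The lowest UUO array, WT 3820 at 11.26, lay just above the higher WT control, while all KO UUO arrays lay far above both of theirs. The log2 difference of IFITM3 was 0.74 ± 0.18 (SE) in WT, 1.67-fold with adjusted p = 0.0116, and 1.14 ± 0.19 in KO, 2.21-fold with adjusted p = 4.8e-04. Without WT array 3820 the WT difference was 0.85, with adjusted p = 5.5e-05.

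IFITM2 moved in the same direction with less spread. It measured 10.64 and 10.73 in WT controls and 11.01 to 11.54 in WT UUO, with a median of 11.37. In KO both controls were at 10.59 and the UUO arrays at 11.69, 11.71, 11.65, 11.58 and 11.48. Every IFITM2 value after UUO was above every control value. IFITM2 differed on the log2 scale by 0.65 ± 0.10 (SE) in WT, 1.57-fold with adjusted p = 6.7e-04, and 1.03 ± 0.10 in KO, 2.05-fold with adjusted p = 1.4e-05. IFITM1, which lies between IFITM2 and IFITM3 on chromosome 7, stayed between 6.83 and 6.97 on all 16 arrays. Its log2 difference was -0.01 (95% interval -0.09 to 0.06) in WT and 0.01 (-0.07 to 0.09) in KO. The probe sequences were not used here, so how far probes of these related genes share targets was not tested.

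GBP2 and GBP3 are guanylate-binding proteins, large GTPases that attack the vacuoles of intracellular pathogens and respond strongly to interferon gamma. GBP3 measured 7.85 and 7.89 in WT controls and 8.18 to 9.02 in WT UUO, with a median of 8.66. In KO the controls were 7.94 and 7.91 and the UUO arrays 9.0, 8.80, 8.85, 8.65 and 8.54. The WT UUO arrays of GBP3 spread widely, with arrays 3818 and 3820 at 8.18 and 8.19 and the other 5 from 8.60 upward. GBP3 differed on the log2 scale by 0.71 ± 0.17 (SE) in WT, 1.64-fold with adjusted p = 0.0122, and 0.85 ± 0.18 in KO, 1.80-fold with adjusted p = 0.00325.

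GBP2 read 7.56 and 7.59 in WT controls and 7.66 to 8.32 in WT UUO, with a median of 7.92. In KO it read 7.63 and 7.71 in controls and 8.21, 8.07, 8.04, 8.08 and 8.06 after UUO. The KO UUO arrays other than 3821 lay within 0.04 of each other, and the groups did not overlap in either genotype. The log2 difference of GBP2 was 0.39 ± 0.12 (SE) in WT (adjusted p = 0.0353) and 0.42 ± 0.12 in KO (adjusted p = 0.0222). The WT call was lost without WT UUO array 3893 (adjusted p = 0.0579) and without either WT control.

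ISG20, an exonuclease that degrades viral RNA, was 6.97 and 6.92 in WT controls and 7.02 to 7.41 in WT UUO, with a median of 7.30. In KO it was 6.97 and 6.87 in controls and 7.32, 7.35, 7.36, 7.22 and 7.12 after UUO. WT UUO arrays 3820 and 3893, at 7.03 and 7.02, lay close to the controls. The log2 difference was 0.30 ± 0.10 (SE) in WT, with adjusted p = 0.0496, and 0.35 ± 0.10 in KO, with adjusted p = 0.0184. The WT value stood at the threshold, and 16 of the 25 alternative settings or left-out arrays put it on the other side.

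RSAD2 encodes viperin, which blocks viral replication at lipid droplets and the endoplasmic reticulum, and it was the member with the largest fall. Its log2 intensity was 10.07 and 9.96 in WT controls and ran from 8.74 through a median of 9.33 to 9.48 in WT UUO. In KO it was 10.33 and 10.02 in controls and 9.21, 9.09, 9.36, 9.41 and 8.81 after UUO. No UUO array came near the controls of either genotype, and the lowest values were those of WT 3820 and KO 3899. RSAD2 fell by 0.78 on the log2 scale in WT, to 0.584 of its control level (adjusted p = 0.00811), and by 1.00 in KO, to 0.4997 of its control level (adjusted p = 0.00109). Without WT array 3820 it fell by 0.69 in WT (adjusted p = 0.00248).

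BST2, IFIT2 and IFIT3 were bright enough to be measured but did not pass. BST2 encodes tetherin, which holds budding virus at the cell surface. It read 8.20 and 8.34 in WT controls, and 6 of the 7 WT UUO arrays lay from 8.80 to 9.18, with the 7th, array 3820, at 8.21. In KO it read 8.24 and 8.40 in controls and 8.89, 8.81, 8.91 and 8.95 on 4 UUO arrays, with array 3899 at 8.31. A single array in each genotype thus stayed at the control level while all others were higher. The log2 difference of BST2 was 0.53 ± 0.19 (SE) in WT (adjusted p = 0.0759) and 0.45 ± 0.20 in KO (adjusted p = 0.131). The WT UUO arrays of set 2 alone leave out array 3820 and the other 2 arrays of set 1. With set 2 alone the WT difference was 0.59 with adjusted p = 0.00947, and the KO difference was 0.40 with adjusted p = 0.0773. With set 1 alone the WT difference was 0.46 with adjusted p = 0.411, and the KO difference was 0.53 with adjusted p = 0.272.

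IFIT1, IFIT2 and IFIT3 bind foreign RNA and are among the most strongly induced targets of type I interferon. IFIT3 read 8.87 and 8.70 in WT controls and 8.48 to 9.12 in WT UUO, with a median of 8.62. In KO it read 8.48 and 8.34 in controls and 8.86, 8.83, 9.06, 9.05 and 8.52 after UUO. The WT groups overlapped, whereas the KO UUO arrays all lay above the KO controls, which were themselves below the WT controls. The log2 difference was -0.05 ± 0.16 (SE) in WT (adjusted p = 0.897) and 0.46 ± 0.17 in KO (adjusted p = 0.0703). IFIT2 differed by 0.09 in WT (adjusted p = 0.771) and 0.22 in KO (adjusted p = 0.311), and IFIT1 stayed between 6.67 and 6.96 on all arrays.

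MX1 and MX2, GTPases that trap viral nucleocapsids, were both dim. MX1 differed by 0.11 in WT (adjusted p = 0.108) and 0.01 in KO (adjusted p = 0.931). With the UUO arrays of set 2 alone MX1 was called in WT (0.14, adjusted p = 0.0374), but not with those of set 1 alone (0.08, adjusted p = 0.623). MX2 read 7.09 and 7.12 in WT controls and 6.83 to 7.13 in WT UUO, with a median of 6.96, and 6.95 and 6.86 in KO controls and 7.01, 6.96, 7.01, 7.17 and 6.91 after UUO. Its log2 difference was -0.14 (adjusted p = 0.216) in WT and 0.10 (adjusted p = 0.382) in KO.

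Of the ISG15 system, USP18, the protease that removes ISG15 and restrains the type I receptor, differed by 0.10 in WT (adjusted p = 0.741) and 0.12 in KO (adjusted p = 0.656). TRIM25, a ubiquitin ligase that activates RIG-I, read 7.18 and 7.31 in WT controls and 7.07 to 7.41 in WT UUO, with a median of 7.13. In KO it read 7.16 and 7.35 in controls and 7.12, 7.12, 7.11, 7.12 and 7.23 after UUO. Its log2 difference was -0.05 (adjusted p = 0.783) in WT and -0.12 (adjusted p = 0.418) in KO, within the spread of the controls.

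Among the other induced genes, IFI35 and PARP14 rose in KO and did not pass in WT. IFI35, a leucine zipper protein that regulates innate signalling, read 7.49 and 7.48 in WT controls and 7.58 to 8.04 in WT UUO, with a median of 7.81. In KO it read 7.47 and 7.44 in controls and 8.05, 7.69, 8.18, 7.90 and 7.79 after UUO. Every UUO array was above every control, and the log2 difference was 0.33 ± 0.12 (SE) in WT (adjusted p = 0.0916) and 0.46 ± 0.13 in KO (adjusted p = 0.0155). With the UUO arrays of set 2 alone, IFI35 was also called in WT (0.36, adjusted p = 0.0179), but not with those of set 1 alone (0.28, adjusted p = 0.417). PARP14, a mono-ADP-ribosyltransferase, read 8.36 and 8.49 in WT controls and 8.20 to 8.81 in WT UUO, with a median of 8.40. In KO it read 8.24 and 8.34 in controls and 8.78, 8.72, 8.63, 8.69 and 8.74 after UUO. The WT groups overlapped and the KO groups did not. The log2 difference of PARP14 was 0.05 ± 0.12 (SE) in WT (adjusted p = 0.883) and 0.42 ± 0.13 in KO (adjusted p = 0.0251).

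A call in KO alone is no difference between the genotypes. The difference between the KO and WT responses was 0.14 for IFI35 and 0.38 for PARP14 on the log2 scale, and neither passed. LGALS3BP, a secreted glycoprotein, differed by 0.25 in WT (adjusted p = 0.278) and 0.39 in KO (adjusted p = 0.0623). It was called in KO with the UUO arrays of set 2 alone (0.38, adjusted p = 0.0378), but not with those of set 1 alone (0.39, adjusted p = 0.221). IFI44 and RTP4 lay between 6.77 and 7.06 on all 16 arrays.

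**Figure D2:**
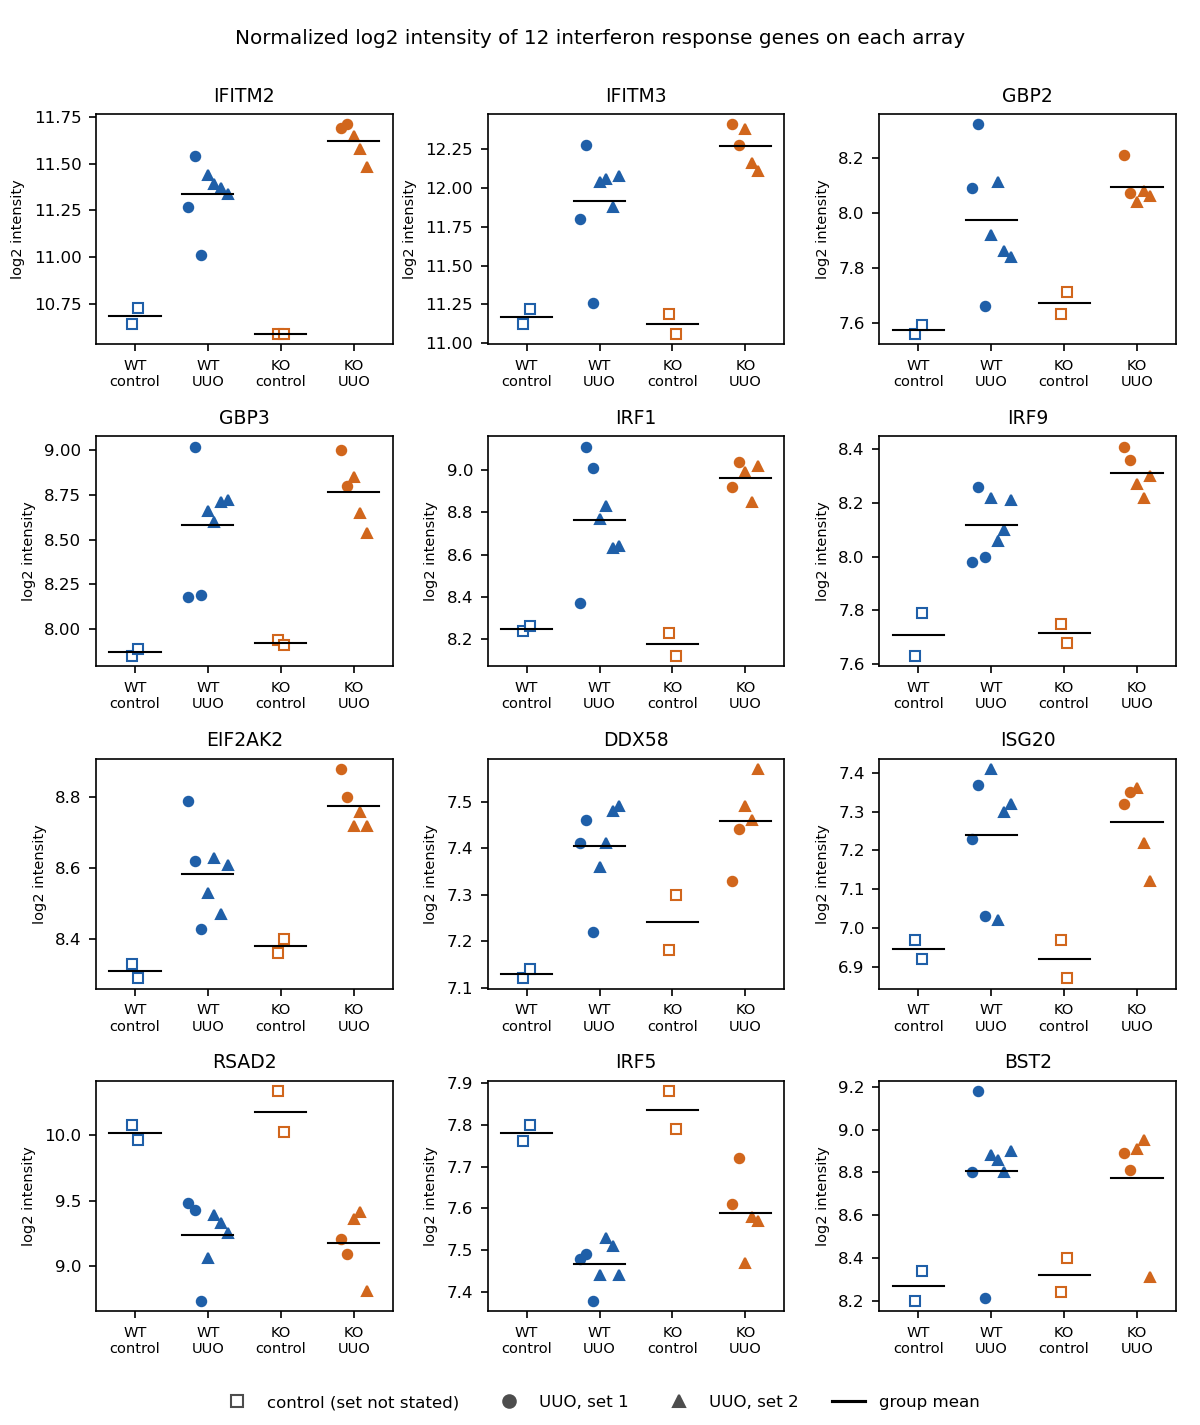
Normalized log2 intensity of 12 of the genes on each array, by group, with squares for controls, circles for UUO arrays of set 1, triangles for UUO arrays of set 2 and lines for group means; each panel has its own axis. The UUO arrays of IFITM2, IRF9 and EIF2AK2 all lie above the controls, those of RSAD2 and IRF5 below, and BST2 has 1 array of each genotype, 8.21 and 8.31, at the control level.

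The calls rested on few controls. Without WT control 3811 the number of genes called in WT went from 11 to 2 (IFITM2 and IRF5), and without WT control 3812 to 3 (IFITM2, IRF9 and IRF5), although no called gene changed sign. With only the 2 WT groups in the fit, 5 were called, and with only the 2 KO groups 17. The WT calls lost were those of IRF1, EIF2AK2, IFITM3, ISG20, GBP2 and GBP3. Only the UUO arrays of set 1 against the WT controls gave 0 calls, with 13 genes at an unadjusted p under 0.05, where those of set 2 gave 15. In KO the 13 calls became 7 without control 3813, 8 without control 3814 and 6 with the UUO arrays of set 1. Without WT UUO array 3820, 15 genes were called in WT and 16 in KO. The share of all genes called in each of these refits is not given here. These counts can therefore follow the number of calls over the whole table, and are not read as results about the listed genes.

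The individual arrays of a group differed in how far the genes shifted. The median shift over the 37 genes from the mean of the controls of the same genotype ran from 0.03 (array 3820) to 0.26 (array 3819) in WT UUO and from 0.06 (array 3899) to 0.22 (array 3898) in KO UUO. Of the 26 brighter genes, array 3820 was the lowest of the 7 WT UUO arrays in 16, among them IFITM2, IFITM3, BST2, GBP2 and PARP14. Array 3819 was the highest in 13, among them IRF1, IRF9, IFITM2, IFITM3, GBP2 and GBP3. Array 3818 was the lowest in 6, including IRF1, IRF9 and GBP3. In KO UUO, array 3899 was the lowest of 5 in 12 genes, among them IFIT2, IFIT3, IFITM2, IFITM3 and BST2. RSAD2, which fell after UUO, was also lowest on arrays 3820 and 3899, where it was furthest from its controls. Its shift there was -1.28 and -1.37, while that of BST2 was -0.06 and -0.01. The share of all genes lowest or highest on each array is not given here. The counts are therefore not read as results about the listed genes. These genes did not form 1 block on array 3820, where IRF1 was 9.01 and IRF8 and ZBP1 were the highest of the group.

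**Figure D3:**
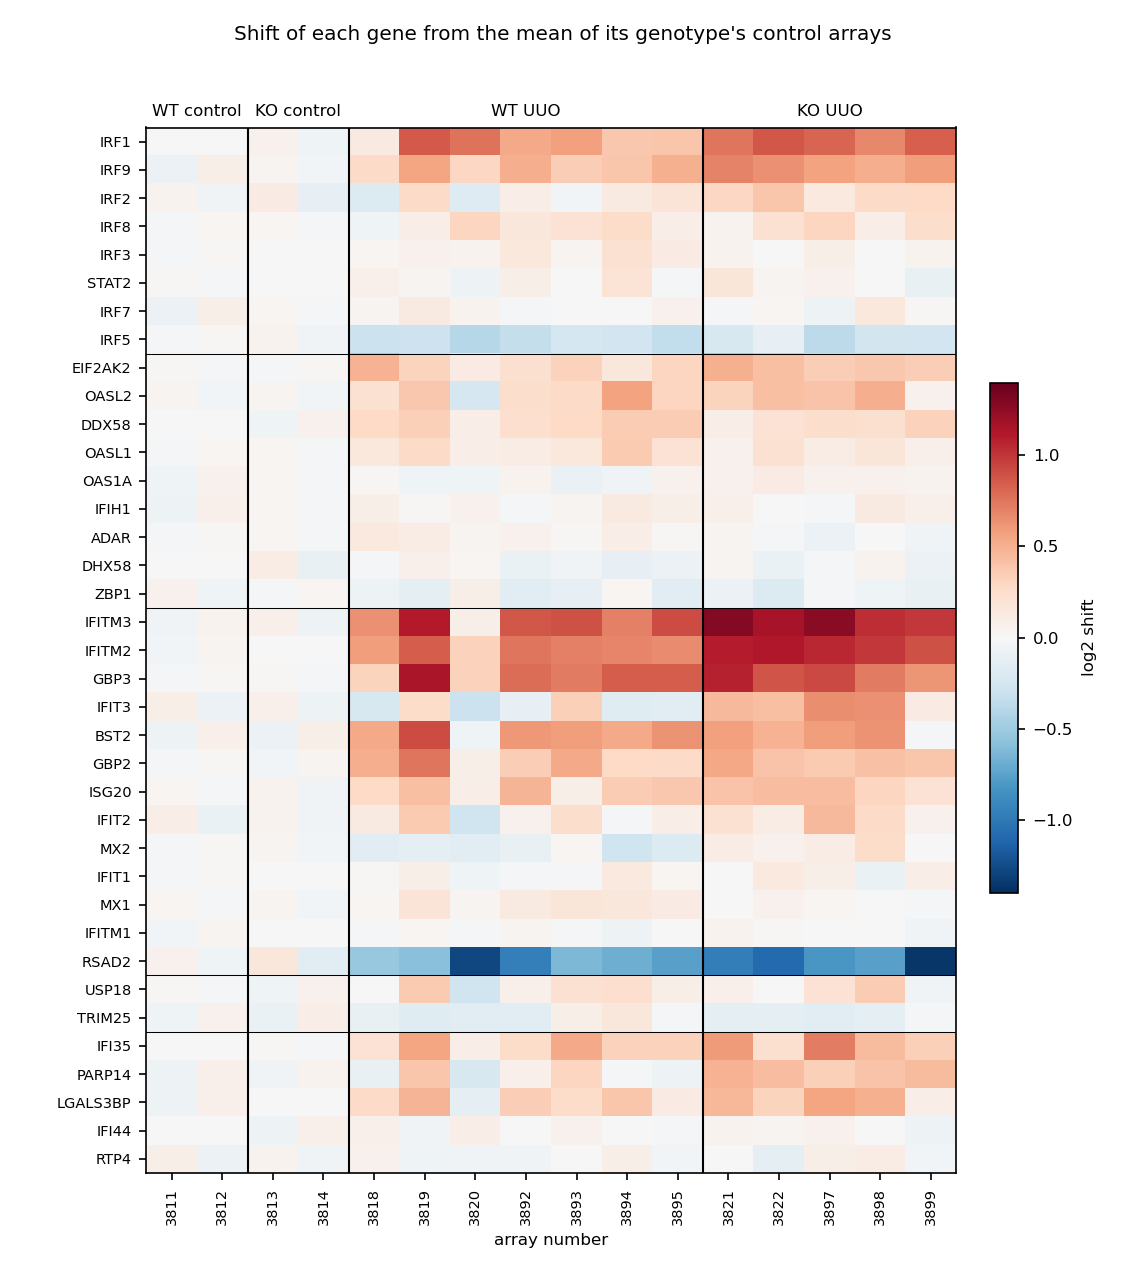
Log2 shift of each gene (rows, by role) on each array (columns, by number) from the mean of its genotype's 2 control arrays, red above and blue below. IFITM3, IFITM2 and GBP3 are red across the UUO arrays, RSAD2 is blue across them, and WT array 3820 is paler than its neighbours for IFITM3, BST2 and GBP2.

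Markers of other cells and of injury moved with these arrays. The summed intensity of 21 leukocyte markers was 4133 to 5126 on the 4 control arrays, 5273 to 11662 in WT UUO and 7491 to 11363 in KO UUO. Of the 21, 3 rose (14.3%) and 1 fell (4.76%) in WT, beside 6.97% and 8.22% of all genes. In KO 6 rose (28.6%) and 1 fell (4.76%), beside 10.6% and 11.2% of all genes. The median log2 difference over the 21 was 0.023 in WT and 0.015 in KO, and the highest 2.63 and 2.89. The rise of the sum was thus not shared by the typical marker. The pan-leukocyte marker PTPRC was at the dim end of the table, at 6.76 to 6.92 on all 16 arrays. The lowest leukocyte sums in WT UUO were 5273 on array 3818 and 6043 on array 3820, the highest 11662 on array 3819, and in KO the lowest, 7491, was that of array 3899. The injury sum of HAVCR1 and LCN2 was likewise lowest on arrays 3820 (4973) and 3818 (14379) and highest on array 3819 (28333) in WT UUO. The sum of 10 kidney epithelial markers was 41820 to 49336 on control arrays, 21964 to 47187 in WT UUO and 21116 to 24422 in KO UUO. The sum of 6 endothelial markers differed less, at 3498 to 4499 over all 16 arrays. Their part in the differences of the interferon response genes was not tested. In RNA of a whole kidney, fewer cells of a type and less RNA per cell cannot be told apart.

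The promoters of the genes were read for the letters of both response elements, in RefSeq windows of GRCm38.p6 from 250 bases before to 50 after each annotated start. Of the 37 genes, 30 had a window under their symbol. The core of the interferon-stimulated response element, GAAA, any 2 bases and GAAA on either strand, occurred in 14 of these 30 genes (46.7%), beside 3.99% of the 27025 genes with a window and 3.44% of all 32851 windows. The letters of the gamma-activated site, TTC, any 3 bases and GAA, which read the same on both strands, occurred in 11 of the 30 (36.7%), beside 9.55% of genes and 8.3% of windows. The letters of the interferon-stimulated response element were present in 6 of the 9 genes that rose in both genotypes (DDX58, EIF2AK2, GBP2, GBP3, IFITM2, IFITM3). These letters were also present in RSAD2, of the 2 that fell, and in 7 of the 18 with a window that passed in neither. They were thus found in genes that rose, that fell and that did not pass. In IRF1, IRF9 and ISG20, which rose, and in IRF5, which fell, these letters were not in the windows. The letters of the gamma-activated site were in a window of IRF1 and of ISG20, and not in those of IRF9 and IRF5. They were present in 4 of the 9 genes that rose in both genotypes and in 0 of the 2 that fell. They were also in IFI35, called in KO alone, and in 6 of the 18 that passed in neither. A match of letters is a description and not a site shown to bind.

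Stretches of 60 bases upstream of the start are shown for 3 genes that rose, RSAD2, which fell, and 3 that did not pass. Not passing does not show an unchanged gene. IFIT1 was dim, and BST2 was called in WT with the UUO arrays of set 2 alone. The stretches are written 5′ to 3′ on the strand of the gene, with the matches in capitals. In GBP3 and BST2 the 2 matches overlap.
IFITM2 (chr7:140955973-140956032, minus strand, match starting 46 bases before the start): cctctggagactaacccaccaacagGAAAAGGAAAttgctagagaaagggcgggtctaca
GBP2 (chr3:142620579-142620638, plus strand, match starting 59 bases before the start): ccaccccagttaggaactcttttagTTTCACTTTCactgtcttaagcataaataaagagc
GBP3 (chr3:142559977-142560036, plus strand, matches starting 45 and 39 bases before the start): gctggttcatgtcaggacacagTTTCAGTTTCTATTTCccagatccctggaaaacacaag
RSAD2 (chr12:26456538-26456597, minus strand, match starting 120 bases before the start): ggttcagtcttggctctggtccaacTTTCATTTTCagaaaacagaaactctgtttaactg
IFIT1 (chr19:34640769-34640828, plus strand, matches starting 104 and 85 bases before the start): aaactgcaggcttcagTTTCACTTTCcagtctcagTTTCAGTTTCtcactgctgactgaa
IFIT3 (chr19:34583365-34583424, plus strand, matches starting 156 and 122 bases before the start): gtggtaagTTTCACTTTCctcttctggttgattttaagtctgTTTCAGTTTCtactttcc
BST2 (chr8:71537565-71537624, minus strand, matches starting 130 and 124 bases before the start): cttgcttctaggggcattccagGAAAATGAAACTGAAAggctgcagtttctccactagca

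The rest of the pathway was read from lists of its ligands, receptors and kinases, inducers and further target genes. Of 17 interferon genes in the table, none rose in either genotype, none fell in WT and 1 fell in KO (IFNA6, -0.20, adjusted p = 0.0206). At an unadjusted p under 0.05 there was 1 of the 17 in WT (5.88%) and 2 in KO (11.8%), beside 26% and 30.7% of all genes at that level. These shares were not matched for brightness, and dimmer genes rose less often over the whole table. The genes of interferon beta and gamma were likewise named for their role. IFNB1 differed by -0.04 (95% interval -0.15 to 0.08) in WT and -0.08 (-0.20 to 0.04) in KO, and IFNG by 0.06 (-0.02 to 0.14) and 0.01 (-0.08 to 0.09), all at the dim end of the scale. Of 13 receptor, kinase and inhibitor genes, 4 rose in WT (30.8%) and 5 in KO (38.5%), beside 6.97% and 10.6% of all genes, and none fell, beside 8.22% and 11.2%. SOCS3, an inhibitor of cytokine signalling that many cytokines induce, rose by 2.54 on the log2 scale in WT (adjusted p = 0.00152) and by 3.18 in KO (adjusted p = 1.8e-04). IFNGR1, the ligand-binding chain of the interferon gamma receptor, rose by 0.46 (adjusted p = 0.0348) and 0.52 (adjusted p = 0.0146). JAK1, a kinase of both receptors, differed by 0.33 in WT (adjusted p = 0.255) and rose by 0.78 in KO (adjusted p = 0.00581). The type I receptor gene IFNAR1, named for its role after its values were seen, differed by -0.01 in WT and -0.00 in KO.

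Of 12 genes that induce interferon or act with it, 3 (25%) rose in each genotype, beside 6.97% and 10.6% of all genes. These were MYD88, the adaptor of Toll-like and IL-1 family receptors (0.88 in WT, adjusted p = 4.5e-05, and 1.02 in KO, adjusted p = 8.7e-06), and the NF-κB subunits NFKB1 (0.76 and 1.17) and RELA (0.74 and 0.96). Of 31 further type I target genes, 3 rose and 1 fell in WT and 5 rose and 1 fell in KO. The shares that rose were 9.68% and 16.1%, beside 6.97% and 10.6% of all genes, and the share that fell was 3.23% in both, beside 8.22% and 11.2%. The chemokine genes CXCL10 (0.99 in WT, adjusted p = 0.00728, and 1.14 in KO, adjusted p = 0.00198) and CCL5 (1.16, adjusted p = 0.0401, and 1.15, adjusted p = 0.0383) rose most. Of 22 interferon gamma target genes, 4 rose (18.2%) and 2 fell (9.09%) in WT, beside 6.97% and 8.22% of all genes. In KO 2 rose (9.09%) and 4 fell (18.2%), beside 10.6% and 11.2% of all genes. CXCL9, a chemokine typical of interferon gamma, fell by 0.41 in WT (adjusted p = 0.0458) and by 0.53 in KO (adjusted p = 0.0103). IRGM1, a GTPase of cell-autonomous defence, rose by 0.64 in WT (adjusted p = 0.0163) and differed by 0.32 in KO (adjusted p = 0.229), and CD74, the invariant chain of class II antigen presentation, fell by 0.69 in WT (adjusted p = 0.0300) and differed by -0.36 in KO (adjusted p = 0.276).

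Whether loss of IL-33 altered these genes after UUO was asked over the 12 UUO arrays. The study's threshold combined a fold change above 1.3 with p under 0.05 before and under 0.25 after adjustment, and at it limma called none of the 37 genes, beside 0.011% of all genes tested. All 7 WT UUO arrays entered this fit, whereas the study's own contrast used fewer WT arrays that the sources used here do not name, so this is not a rerun of that contrast. At an unadjusted p under 0.05 alone there were 6 of the 37 (16.2%), beside 10.3% of all genes. The exact permutation test over the 792 splits of the arrays, adjusted over all genes, called none. Its smallest possible p was 0.00126, and 137 of the 18132 genes had no overlap between the groups. Adjustment over all genes thus left it little room to call any gene, and its lack of calls is not read as a result. KO was above WT in 29 of the 37 genes, beside 9407 of all 18132, and the median log2 difference was 0.05, beside 0.00 over all genes. Between the 2 sets of mice in WT UUO, set 2 was above set 1 in 28 of the 37, with a median of 0.05. In KO UUO it was above in 15, with a median of -0.03. In control kidneys KO was above WT in 24 of the 37. The count of 29 is therefore not read as a genotype difference.

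The 6 genes were IFITM2, IFITM3, PARP14, EIF2AK2, IRF9 and IRF5, all higher in KO. IFITM3 was 11.26 to 12.28 in WT UUO (median 12.04) and 12.11 to 12.41 in KO UUO. The groups overlapped, with WT array 3819 inside the KO range and WT array 3820 far below the rest. The log2 difference, KO minus WT, was 0.36 (95% interval 0.05 to 0.66, adjusted p = 0.417) and the exact two-sided permutation p for this gene alone 0.0253. It was 0.56 within set 1, 0.20 within set 2, 0.25 without array 3820 and 0.42 (adjusted p = 0.214, past the study's threshold) without array 3819.

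IFITM2 was 11.01 to 11.54 in WT UUO and 11.48 to 11.71 in KO UUO, so that only the highest WT array reached the KO range. The difference was 0.29 (95% interval 0.12 to 0.45, adjusted p = 0.311, exact permutation p = 0.00505). It was 0.43 within set 1, 0.19 within set 2 and 0.23 without array 3820 (adjusted p = 0.238 with a fold change below the threshold). PARP14 differed by 0.24 (0.04 to 0.44, adjusted p = 0.413, exact permutation p = 0.0505), EIF2AK2 by 0.19 (0.07 to 0.32, adjusted p = 0.320) and IRF9 by 0.19 (0.07 to 0.31, adjusted p = 0.320). For both EIF2AK2 and IRF9 the exact permutation p was 0.00884. IRF5, which fell after UUO in both genotypes, was higher in KO by 0.12 (0.03 to 0.21, adjusted p = 0.345, exact permutation p = 0.0114). After adjustment over all genes the exact permutation p was 0.421 or more for each of them.

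The lowest differences, KO minus WT after UUO, were -0.06 for RSAD2 (95% interval -0.35 to 0.23), -0.05 for IRF8 (-0.19 to 0.09) and -0.05 for TRIM25 (-0.18 to 0.08). IRF8 read 7.44 to 7.79 in WT UUO (median 7.65) and 7.46, 7.62, 7.71, 7.50 and 7.65 in KO UUO, all inside the WT range. RSAD2 was 0.03 higher in KO without array 3899, and TRIM25 0.02 higher within set 1, so neither had a direction. The 95% interval was -0.35 to 0.29 for BST2 and -0.11 to 0.48 for GBP3. For dim genes such as IFIT1, MX1, OAS1A and IFITM1 the compressed scale limits what an interval shows, and none is read here. Marker sums also differed between these groups. The sum of 5 fibroblast and myofibroblast markers was 2102 to 3465 in WT UUO and 3954 to 4386 in KO UUO, with no overlap, and the injury sum 4973 to 28333 and 21008 to 28139. Their part in the differences was not tested.

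**Figure D4:**
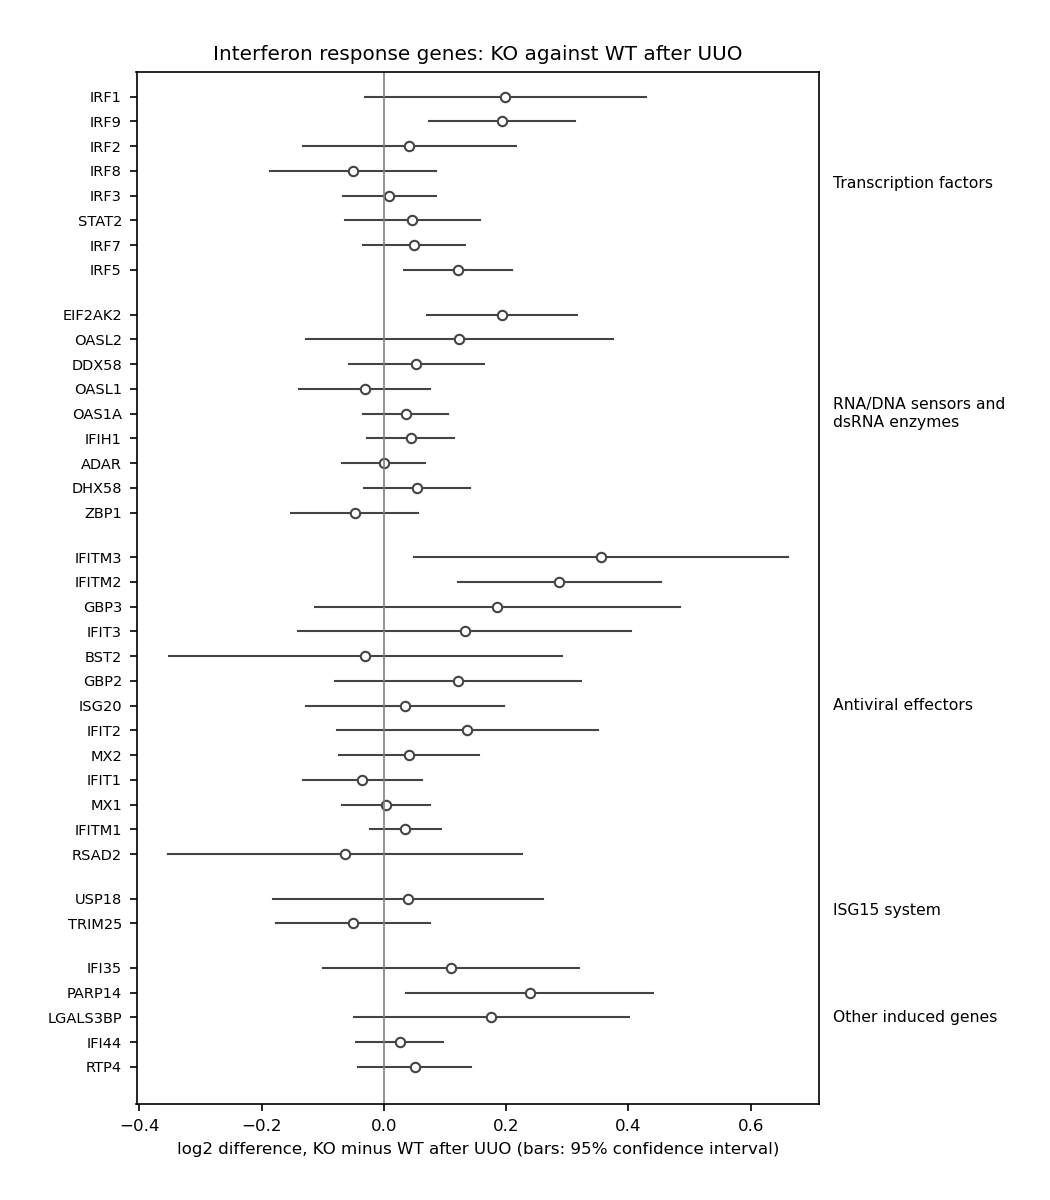
Log2 difference of KO minus WT over the 12 UUO arrays for each of the 37 genes, by role, with bars for the 95% confidence interval. No gene passed the threshold, and the largest differences were those of IFITM3 (0.36), IFITM2 (0.29) and PARP14 (0.24).

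In control kidneys, limma called none of the 37 genes between the genotypes, beside 0% of all genes tested, and 1 (2.7%) had an unadjusted p under 0.05, beside 3.66% of all genes. That gene was MX2, which was lower by 0.20 in KO with adjusted p = 1.00. The deleted gene IL33, with a mean of 6.87 in KO controls and 7.82 in WT controls, was not called either. The lack of calls between these controls therefore does not show equal levels. The test of the difference between the genotypes in the response to UUO also called none of the 37, beside 0% of all genes, and 4 (10.8%) had an unadjusted p under 0.05, beside 4.74% of all genes. They were IFIT3 (0.51, 95% interval 0.01 to 1.01), IFITM2 (0.38, 0.08 to 0.68), PARP14 (0.38, 0.00 to 0.75) and MX2 (0.24, 0.03 to 0.45), each with adjusted p = 0.973. This comparison shares its arrays with those above. With 2 controls in each genotype, its intervals were wide.

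The sets of mice were compared as the only batch in the labels. Between set 2 and set 1, limma called none of the 37 genes in WT UUO, beside 0.0165% of all genes, and none in KO UUO, beside 0%. At an unadjusted p under 0.05 there were 2 in WT (DHX58 and TRIM25), 5.41% beside 11.9% of all genes, and 1 in KO (IRF5), 2.7% beside 5.86%. Without WT UUO array 3819, limma called GBP3 (0.49), IFITM3 (0.48) and IRF2 (0.28) higher in set 2 in WT, 3 of the 37, beside 8.58% of all genes in either direction. The values of each set against the same 2 controls follow as a description. IFITM2 differed from WT controls by 0.59 in set 1 and 0.70 in set 2, and from KO controls by 1.11 and 0.98. RSAD2 differed by -0.80 and -0.76 in WT and by -1.03 and -0.98 in KO.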

How the data were processed

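Per the methods, the authors read the arrays into R with beadarray. They deposited a linear intensity for each of 18132 genes on each array. BeadStudio 2 stands in the submitters' processing notes, and the background correction, normalization and joining of probes are not given in the sources used here. Array medians of 132.3 to 133.4 show a table already scaled between arrays.

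Quantile normalization and log2 came first. Then limma 3.58.1 (R 4.3.3) was fitted with lmFit and eBayes, adjusting p by Benjamini-Hochberg across the table, in a model of the 4 groups. The 12 UUO arrays alone served for KO against WT and for the sets of mice. An adjusted p under 0.05 was a call, except for KO against WT after UUO. The fits were tested on simulated data.

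Alternatives were no further normalization, median centring, a variance trend, array weights, brighter genes alone, each set, set as a block, fewer or all groups and each array left out. A further alternative subtracted the lowest normalized intensity and added 16 before log2, with no measured background. By rule every gene was named once, with array values for those called or with the 3 largest rises or falls in a main comparison, and up to 3 genes of each pathway list. The genes and lists were chosen with earlier results of these data known. Precision is limited by the number of arrays, 2 in each control group. Python 3.11.15 and matplotlib 3.10.9 served for promoters and plots. One gene of a pathway list is not reported by name here.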

Additional observations from a re-analysis of the deposited data

Results flagged for a closer look

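Each gene was searched in the 7 WT UUO and the 5 KO UUO arrays for a highest or lowest array far from the others, and 5 of 74 groups of arrays were marked; chance marks about 1 in 20 groups, which is 3.7 here. BST2 was 8.21 on WT UUO array 3820, with the others at 8.80 to 9.18, and 8.31 on KO UUO array 3899, with the others at 8.81 to 8.95. GBP2 was 8.21 on KO UUO array 3821, above the 8.04 to 8.08 of the others. TRIM25 was 7.23 on KO UUO array 3899, above the 7.11 to 7.12 of the others. OAS1A was 6.92 on KO UUO array 3822, above the 6.85 to 6.87 of the others, a gap within the dim end of the scale.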

How the results depend on the processing

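The numbers of genes called were 11 in WT and 13 in KO after UUO. They became 0 in WT and 6 in KO with the UUO arrays of set 1, and 5 in WT and 17 in KO with only the 2 groups compared. Leaving out each array in turn gave 2 to 15 in WT, 7 to 16 in KO, 0 to 1 for KO against WT after UUO, and 0 to 3 for set 2 against set 1 in WT. The lone gene was IFITM3, without WT array 3819, at 0.42. Apart from set 2 against set 1 without array 3819, the share of all genes called in these refits is not given here. The median over the genes was 0.20 in WT and 0.35 in KO among the brighter genes alone, and 0.12 for KO against WT. With the lowest intensity subtracted and 16 added it was 0.29 in KO and 0.12 for KO against WT. Without each array it ran from 0.06 to 0.10 in WT, 0.11 to 0.16 in KO and 0.04 to 0.07 for KO against WT. The alternatives were recomputed for the genes called or with the largest differences, and among these 2 values changed sign, both for KO against WT after UUO: TRIM25 within set 1 (0.02) and RSAD2 without KO array 3899 (0.03; -0.15 to 0.03 over all arrays left out). Among genes not called, small differences also changed sign by set, such as IRF2 in WT (-0.04 in set 1), STAT2 in KO (-0.01 in set 2), ADAR in KO (0.01 in set 1) and IFITM1 in KO (-0.01 in set 2). The causes were not tested, beyond fewer arrays or genes in the fit. The other counts stayed at 0. No paired analysis was possible because each array has its own number, which no other group shares. The table gives no detection calls, so how far dim genes rise above background is unknown.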
